A study of Mus musculus with 27 samples.

Results

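The genes described here are 39 interferon-stimulated genes, out of 24293 gene symbols listed in each RNA-seq table. They were chosen by symbol as known targets of interferon signalling, and all 39 were found in every one of the 15 tables. The study measured how mouse microglia, the resident macrophages of the brain, change when the factor called ND1 in the labels is introduced to turn them into neuron-like cells. RNA was sequenced in 5 groups of 3 libraries, and CpG methylation in 1 control and 1 ND1 library of unstated day. The 10 chromatin immunoprecipitation samples were not analysed here. All groups came from the cortex of wild-type (WT) C57BL/6 mice at postnatal day 1. The groups were control and ND1-transduced microglia on day 2 and on day 7 of the experiment, together with cultured cortical neurons, for which no day is given. ND1 was carried by a lentivirus and given together with a second lentivirus for M2rtTA, the activator that turns on the transgene in the presence of doxycycline. The transduced cells were then kept in a medium for induced neurons, with BDNF, GDNF and NT3, and doxycycline was added a single time. Neurons grew in a similar base medium without these factors. The labels do not spell out ND1, do not state the medium, virus or doxycycline given to the control microglia, and do not say whether the libraries of a group came from separate cultures. Differences between ND1 and control cells therefore cannot be told apart from effects of virus, medium or growth factors, and the p-values below measure only the spread between these libraries.

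Type I interferons are secreted when a cell senses viral or misplaced nucleic acid. They bind the receptor pair Ifnar1 and Ifnar2, whose kinases Jak1 and Tyk2 phosphorylate Stat2. Within a complex that holds Irf9 it enters the nucleus and binds the interferon-stimulated response element (ISRE) in the promoters of antiviral genes, Irf7 among them, which in turn raises further interferon production. Microglia are a main responding cell of the brain.

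The libraries were checked first. Summed FPKM (fragments per kilobase of transcript, a level scaled for gene length and library size) lay between 428966 and 739688, with 10706 to 12089 genes at or above 1 FPKM. The sums differed by group. They were 679110 to 739688 in control microglia, 600196 to 618453 in ND1 day 2, 447508 to 461030 in ND1 day 7 cells and 428966 to 483356 in neurons. The files hold no read counts, so counting error cannot be given. The FPKM that a single read adds, estimated from the steps between low values and set to 1 in control day 2 replicate 1, was 0.73 to 1.13 in the other libraries. It was lowest in ND1 day 7 cells (0.730 to 0.804) and neurons (0.740 to 0.832). Neurod1, a neurogenic transcription factor, was at 1.04, 1.15 and 1.08 FPKM in control day 2 cells and at 3073, 3454 and 3337 FPKM in ND1 day 2 cells, and had come down to 36.7, 32.6 and 32.5 FPKM in ND1 day 7 cells. The summed level of 20 microglia and myeloid markers was 32405 to 33400 FPKM in control day 2 and 42392 to 44858 FPKM in control day 7 cells, against 73.7 to 80.0 FPKM in neurons. The summed level of 8 neuron markers was 2530 to 2727 FPKM in neurons and 16.2 to 24.4 FPKM in control microglia, so both labelled cell types carried their markers. Tmem119, a marker of microglia in the adult brain, was close to 0, with a mean of 0.249 FPKM in control day 2 and 1.08 FPKM in control day 7 cells.

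The promoters of these genes were examined for known sequence elements. The genes were chosen as known targets of interferon signalling, so a high share with an ISRE is not independent evidence. RefSeq promoter sequences (GRCm38.p6; from 250 bases before to 50 after the annotated start) were matched for 28 of the 39 genes, 4 of them with more than 1 start. They were searched on both strands for the ISRE core GAAANNGAAA, in which neighbouring matches may overlap. The core was present in 16 of 28 genes (57.1%; exact binomial 95% interval 37.2 to 75.5%), against 3.99% of all 27025 genes with a promoter in the table. At least 2 cores were present in 7 of 28 genes (25%), against 0.266% of all genes. By comparison, the core of the gamma-activated site, TTCNNNGAA, was present in 6 of 28 genes (21.4%), against 9.55% of all genes. A match is a description of the letters, not evidence of a bound site. The 28 genes are not a random sample of a larger set, so the interval is only a guide. The 7 promoters with at least 2 cores are printed below from 170 bases before to 30 after the start, 5′ to 3′ on the strand of the gene, because they show how the cores sit in tandem. Capitals mark the ISRE cores, which appear as their reverse complement where they lie on the opposite strand.
Isg15 (chr4:156200789-156200988, minus strand): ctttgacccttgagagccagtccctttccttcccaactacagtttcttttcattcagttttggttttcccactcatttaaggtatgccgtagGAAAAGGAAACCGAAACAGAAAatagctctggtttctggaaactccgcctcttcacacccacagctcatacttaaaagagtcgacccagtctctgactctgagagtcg
Bst2 (chr8:71537443-71537642, minus strand): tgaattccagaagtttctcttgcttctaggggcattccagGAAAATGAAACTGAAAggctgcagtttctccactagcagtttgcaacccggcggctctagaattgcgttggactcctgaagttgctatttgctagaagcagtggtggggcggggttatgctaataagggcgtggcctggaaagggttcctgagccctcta
Ifitm3 (chr7:141010715-141010914, minus strand): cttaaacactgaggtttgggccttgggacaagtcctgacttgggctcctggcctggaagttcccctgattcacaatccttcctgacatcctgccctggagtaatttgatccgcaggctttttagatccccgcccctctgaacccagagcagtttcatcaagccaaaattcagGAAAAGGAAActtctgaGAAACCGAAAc
Ifit3 (chr19:34583359-34583558, plus strand): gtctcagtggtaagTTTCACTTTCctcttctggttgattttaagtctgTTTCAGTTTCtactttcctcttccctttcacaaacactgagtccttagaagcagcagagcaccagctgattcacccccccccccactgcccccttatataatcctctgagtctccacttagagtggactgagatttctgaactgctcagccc
Ifit1 (chr19:34640719-34640918, plus strand): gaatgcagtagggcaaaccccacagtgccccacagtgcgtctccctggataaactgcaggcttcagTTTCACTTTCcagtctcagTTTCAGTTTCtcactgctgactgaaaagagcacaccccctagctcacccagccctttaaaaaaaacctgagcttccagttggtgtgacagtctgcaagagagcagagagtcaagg
Oas1a (chr5:120907496-120907695, minus strand): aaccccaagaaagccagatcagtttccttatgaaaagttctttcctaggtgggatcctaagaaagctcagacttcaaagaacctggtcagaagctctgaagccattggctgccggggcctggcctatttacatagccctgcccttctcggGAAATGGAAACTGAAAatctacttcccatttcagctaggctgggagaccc
Gbp3 (chr3:142559874-142560073, plus strand): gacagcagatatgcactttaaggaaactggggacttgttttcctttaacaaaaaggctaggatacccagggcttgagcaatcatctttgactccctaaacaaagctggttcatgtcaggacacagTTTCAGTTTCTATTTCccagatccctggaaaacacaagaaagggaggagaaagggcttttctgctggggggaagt

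In Isg15 3 cores followed each other with shared letters, and in Bst2, Oas1a and Gbp3 a pair overlapped in the same way. The pairs in Ifit1, Ifit3 and Ifitm3 stood apart. Most cores lay upstream of the start. The cores of Ifitm3 began at positions 3 and 20 after the start, and those of Oas1a at positions -20 and -14. Single cores were found in Rsad2, Gbp2, Oas3, Stat2, Slfn5, Trim30a, Ddx58, Ifih1 and Eif2ak2. No core was found in these windows of the other 12 genes, Irf7, Irf9 and Ifit2 among them. Genes without a promoter in the table were Dhx58, Zbp1, Ifi204, Oas2, Mx1, Mx2, Usp18, Rtp4, Parp14, Ifi27l2a and Tor3a.

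**Figure D1:**
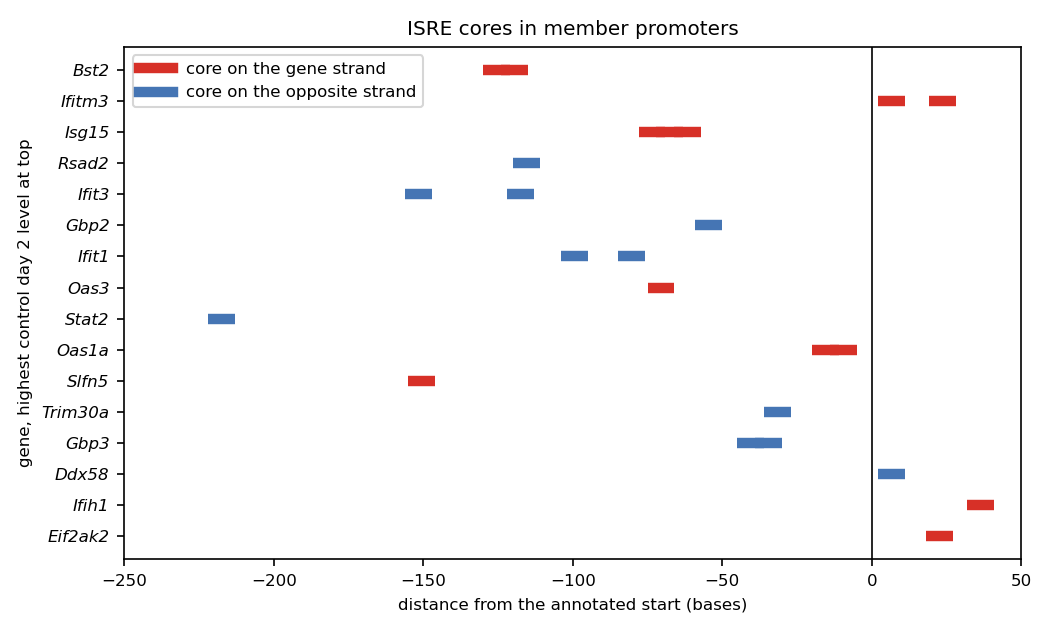
Position of the ISRE cores (horizontal axis, bases from the annotated start, negative upstream) in the 16 genes whose RefSeq promoter holds one, ordered by control day 2 level. For Trim30a, which has more than 1 start, the core at position -36 is drawn and that at position 3 of the other start is left out. Each bar is 1 core on the gene strand (red) or the opposite strand (blue); the tandem cores of Isg15, Bst2, Oas1a and Gbp3 appear as joined bars, and most cores lie upstream of the start.

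Interferon-stimulated genes were among the most abundant transcripts of the control microglia at day 2. Their median level was 194 FPKM, against 8.51 FPKM for the 13599 genes tested, and 34 of 39 were in the top 10% of tested genes. The median was 108 FPKM in control day 7, 126 FPKM in ND1 day 2, 6.23 FPKM in ND1 day 7 and 0.332 FPKM in neurons, where 30 of 39 were under 1 FPKM. In ND1 day 7 cells 3 of 39 were still in the top 10%, and the median of tested genes was 8.44 FPKM. None was listed at 0 in any library. The highest were Bst2 (tetherin, which holds budding virions at the cell surface) at 2143 ± 32.7 FPKM, and Irf7 at 2053 ± 30.5 FPKM (mean ± SD, n = 3, control day 2). These neighbours in the order differed little, and their libraries did not overlap, at 2169, 2106 and 2154 FPKM for Bst2 and at 2034, 2037 and 2088 FPKM for Irf7. The lowest was Eif2ak2, which encodes the double-stranded RNA kinase PKR, at 46.8 ± 2.09 FPKM. Levels were tight within the control day 2 group, where the coefficient of variation had a median of 1.99% over the 39 genes, and looser in ND1 day 7 (13.5%) and neurons (14.8%).

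**Figure D2:**
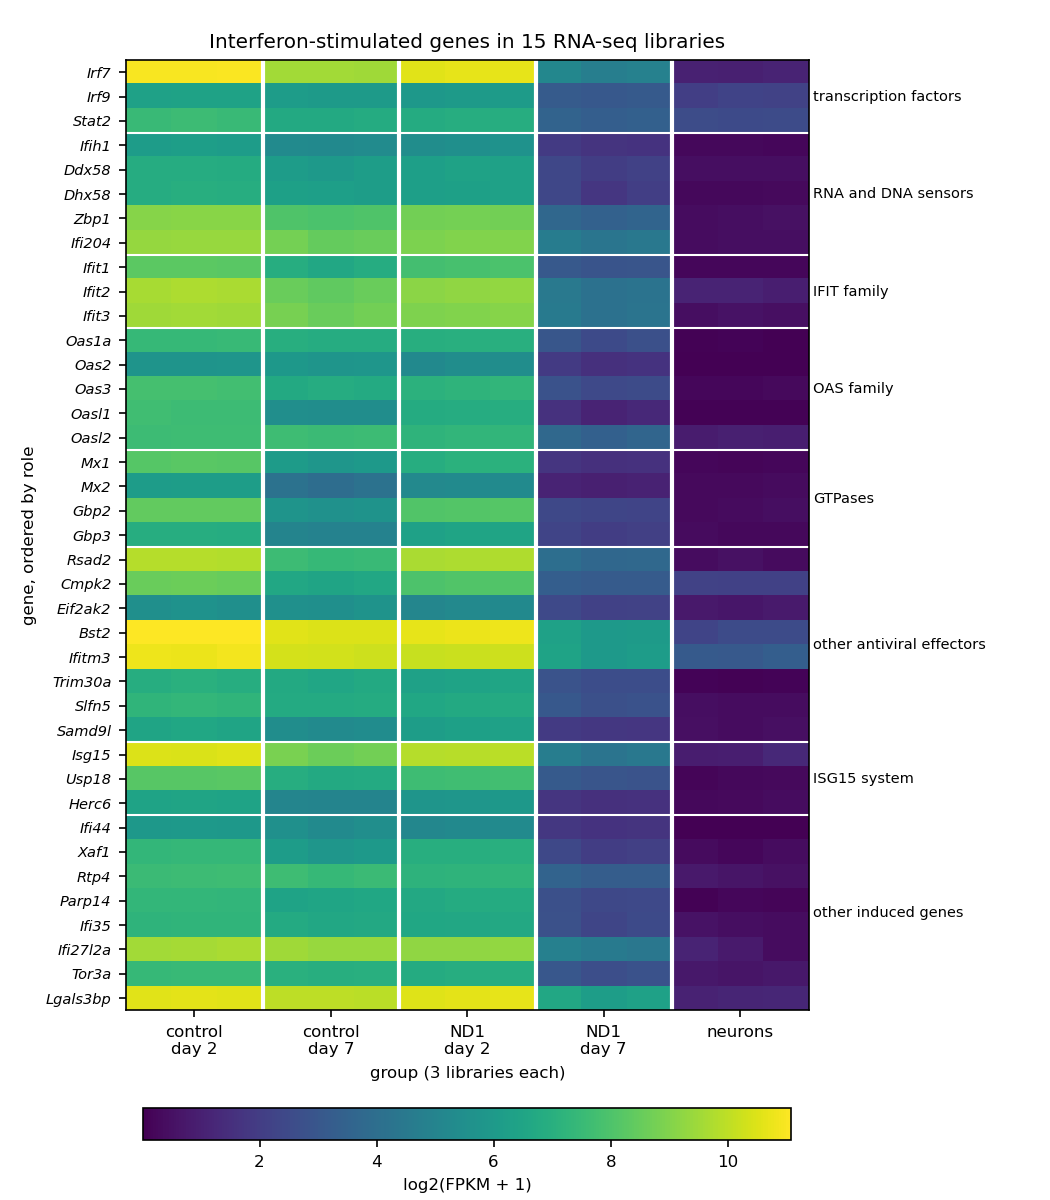
Level of each of the 39 genes (rows, grouped by role) in the 15 libraries (columns, 3 per group), as log2(FPKM + 1) on the colour scale. All 39 genes are at their lowest in the neuron libraries and next lowest in the ND1 day 7 libraries; Irf7, Bst2, Ifitm3, Isg15 and Lgals3bp are the brightest rows in control cells.

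Control microglia were compared between day 2 and day 7 to see how the genes behave in culture without ND1. Here and below, log2(FPKM + 1) was fitted with limma, fold changes are on that log2 scale with the standard error (SE), and calls required both a log2 change of at least 1 and an adjusted p (Benjamini-Hochberg) under 0.05. By this rule 16 of the 39 genes fell and 0 rose from day 2 to day 7, when 3.79% of tested genes fell and 3.9% rose. Without the fold threshold 34 of 39 were lower, when 32% of tested genes were. In 35 of 39 every day 7 library lay below every day 2 library, and in 1 every day 7 library lay above. Among tested genes 33.8% lay wholly lower and 36.2% wholly higher at day 7, so groups without overlap were common in this comparison. The median log2 change was -0.82, against 0.01 over all tested genes. The change was uneven. All 4 GTPase genes and all 3 genes of the ISG15 system fell, but 1 of 5 OAS genes, 1 of 5 sensors and 1 of the 8 other induced genes did.

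Among the transcription factors, Irf7 was at 2034, 2037 and 2088 FPKM at day 2 and 743, 743 and 732 FPKM at day 7. The groups were far apart and each was nearly level within itself. The log2 change was -1.47 (SE 0.07, limma adjusted p 8.61e-10). Stat2 (-0.78) and Irf9 (-0.29), which both belong to the ISRE-binding complex, were not called. Of the sensors, Ifi204, a DNA sensor of the AIM2-like family, was at 642, 656 and 654 FPKM at day 2 and 430, 355 and 377 FPKM at day 7, with no overlap. It was not called at a log2 change of -0.75. Zbp1, a sensor of Z-form nucleic acid, fell by 1.11, while Ifih1 (MDA5, -0.85), Ddx58 (RIG-I, -0.73) and Dhx58 (LGP2, -0.67), which sense viral RNA, stayed inside the fold threshold. The IFIT proteins bind foreign RNA and block its translation. Ifit2 was at 806, 855 and 814 FPKM at day 2 and 375, 337 and 378 FPKM at day 7, so that every day 7 library lay below every day 2 library. It fell by 1.18 (SE 0.08, limma adjusted p 2.93e-08), Ifit1 fell by 1.46, and Ifit3, at -0.83, was not called.

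The OAS family showed how far members of 1 family diverged. OAS enzymes make 2′-5′-oligoadenylate, which activates the ribonuclease RNase L. Oas3 was at 222, 223 and 213 FPKM at day 2 and 105, 115 and 111 FPKM at day 7. Its groups did not overlap, and its log2 change of -0.99 lay just outside the rule. Oasl1, an OAS-like protein, went from 204, 193 and 195 FPKM to 43.6, 42.2 and 42.1 FPKM and fell by 2.18. Its relative Oasl2 was at 195, 201 and 198 FPKM at day 2 and 198, 189 and 192 FPKM at day 7. These groups overlapped, and the log2 change was -0.04. Oas2 went from 53.1, 53.3 and 53.8 FPKM to 59.2, 54.8 and 56.0 FPKM, the day 7 libraries all above those of day 2, with a log2 change of 0.08 (SE 0.07, limma adjusted p 0.341).

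The GTPases contained the largest fall. Gbp2, a guanylate-binding protein that acts on the membranes of pathogens, was at 339, 343 and 340.0 FPKM at day 2 and 52.4, 48.1 and 50.9 FPKM at day 7. It fell by 2.73 (SE 0.05, limma adjusted p 3.91e-14), to 14.8% of its day 2 level. Gbp3 fell by 1.95. Mx1 and Mx2 encode dynamin-like restriction factors, but both are annotated as transcribed pseudogenes in the RefSeq C57BL/6J annotation. Their transcripts were nevertheless measured: Mx1 was at 289, 305 and 294 FPKM at day 2 and 67.3, 55.9 and 62.8 FPKM at day 7, a log2 change of -2.24. Mx2 fell by 2.05. The 2 Mx genes and the 2 Gbp genes thus went the same way. All day 7 libraries lay below all day 2 libraries, which held for 33.8% of tested genes.

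Other antiviral effectors were split. Rsad2 (viperin, which makes a chain-terminating nucleotide) was at 927, 918 and 896 FPKM at day 2 and 191, 170.5 and 185 FPKM at day 7. It fell by 2.32 (SE 0.07, limma adjusted p 1.36e-11), and Cmpk2, its chromosomal neighbour that supplies nucleotides, fell by 1.96. Bst2 was at 2169, 2106 and 2154 FPKM at day 2 and 1536, 1428 and 1432 FPKM at day 7, separate groups with a log2 change of -0.55 that was not called. Eif2ak2 was at 45.7, 49.2 and 45.5 FPKM at day 2 and 46.4, 45.8 and 51.0 FPKM at day 7. Its groups overlapped, and the log2 change was 0.03 (SE 0.07, limma adjusted p 0.769). The ISG15 system consists here of the ubiquitin-like protein itself, its protease Usp18 and Herc6, which attaches it in mice. Isg15 was at 1459, 1394 and 1514 FPKM at day 2 and 464, 389 and 419 FPKM at day 7. It fell by 1.78 (SE 0.11, limma adjusted p 5.82e-09), Herc6 by 1.42 and Usp18 by 1.41. Lgals3bp, a secreted glycoprotein, was at 1555, 1574 and 1548 FPKM at day 2 and 1015, 1006 and 994 FPKM at day 7, separate groups with a log2 change of -0.63. Of the 8 other induced genes, Xaf1, a proapoptotic gene, fell by 1.40, and Rtp4 was level at -0.07.

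As a set, myeloid markers did not go the same way over this time. By the call rule none of the 19 tested markers fell and 5 rose, when 3.79% of tested genes fell and 3.9% rose. Cx3cr1 (log2 change 2.37), Fcrls (2.39) and Trem2 (1.67) were among those that rose. Without the fold threshold 4 markers were lower and 9 higher, against 4358 and 4596 of the 13599 tested genes. The lowest log2 change of a marker was -0.89. The summed level of the 39 genes was 55.2 ± 0.531 per 100 units of the myeloid marker sum at day 2 and 21.9 ± 0.39 at day 7 (mean ± SD, n = 3). Astrocyte markers also differed, with a sum of 17.7 to 19.4 FPKM at day 2 and 65.2 to 69.2 FPKM at day 7, and 4 of 6 rose. Fibroblast and mural markers summed to 1.18 to 2.31 FPKM at day 2 and 25.5 to 34.8 FPKM at day 7, and 3 of 5 tested rose. In bulk RNA, fewer cells of a type and less RNA per cell cannot be told apart, and the part of these markers in the falls was not tested.

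**Figure D3:**
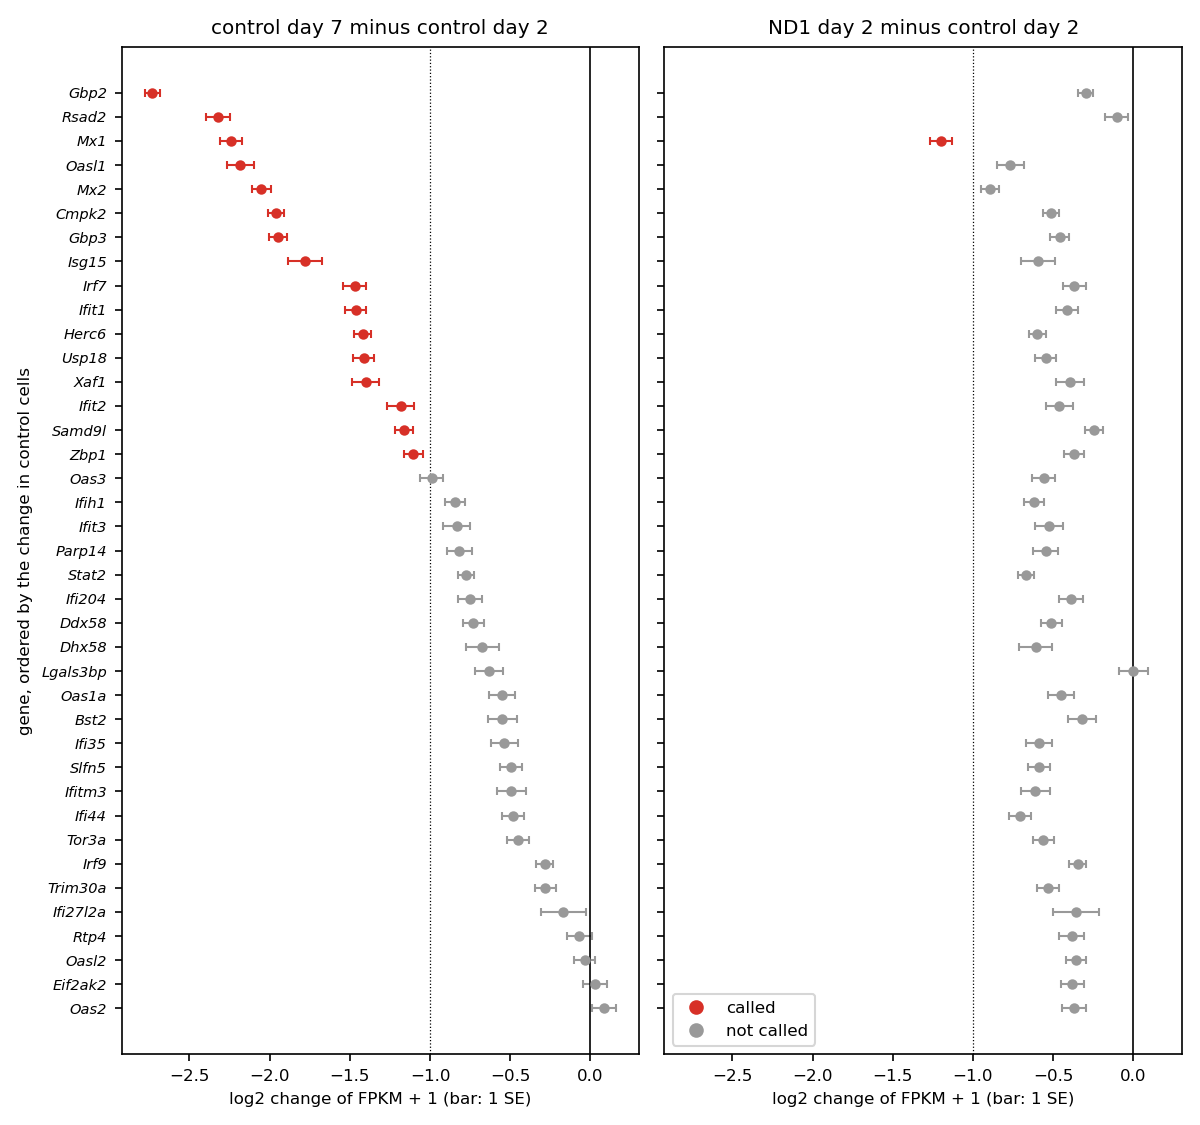
Log2 change of FPKM + 1 for each of the 39 genes from control day 2 to control day 7 (left) and in ND1 against control cells at day 2 (right), in the same gene order; bars are 1 SE, red points passed the call rule, and the dotted line marks -1. The left panel runs from -2.73 (Gbp2) to 0.08 (Oas2) with 16 genes called, while on the right all but Lgals3bp and Rsad2 lie between -1.20 and -0.25 and Mx1 alone was called.

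ND1-transduced cells were compared with control microglia at day 2. 1 of the 39 genes, Mx1, fell and 0 rose, when 0.618% of tested genes fell and 9.1% rose by the same rule. Small differences were common: 37 of 39 were lower without the fold threshold, when 36.3% of tested genes were, and in 38 of 39 every ND1 library lay below every control library, which held for 42.4% of tested genes. The median log2 change was -0.51, against -0.04 over all tested genes. The 39 genes were at a median of 70.0% of the control level (quartiles 66.2 and 77.2%), the myeloid markers at a median of 76.1% and all genes with at least 1 FPKM in the control at 90.8%. The summed level of the 39 genes per 100 units of the myeloid marker sum was 54.2 ± 0.508 in ND1 and 55.2 ± 0.531 in control cells.

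Mx1 was at 289, 305 and 294 FPKM in control and at 118, 133 and 135 FPKM in ND1 cells. The groups were separate, the log2 change was -1.20 (SE 0.07, limma adjusted p 2.39e-09), and the ND1 mean was 43.4% of the control mean. Under quantile normalization the change of Mx1 was -0.96, and it was not called. Mx2 followed at -0.89, and Oasl1 at -0.77. At the other end, Lgals3bp was at 1471, 1561 and 1652 FPKM in ND1 cells, on both sides of the control values of 1555, 1574 and 1548 FPKM, with a log2 change of 0.00 (SE 0.09, limma adjusted p 0.998). Rsad2, at 819, 850 and 881 FPKM, lay just below its control values, with a log2 change of -0.10 (SE 0.07, limma adjusted p 0.226).

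The remaining leading genes of the role groups lay between these ends. Irf7 was at 1518, 1616 and 1637 FPKM, Isg15 at 932, 963 and 993 FPKM, and Bst2 at 1627, 1731 and 1794 FPKM in ND1 day 2 cells. Each of these groups lay wholly below its control, with log2 changes of -0.37, -0.60 and -0.32. Gbp2, which fell the most with time in control cells, was at 265, 281 and 284 FPKM, a log2 change of -0.30. Ifit2 was at 568, 608 and 621 FPKM, Oas3 at 139, 149 and 159 FPKM and Ifi204 at 475, 511 and 505 FPKM. They too lay below control without overlap, and none was called.

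ND1 and control cells were then compared at day 7. All 39 genes fell in ND1 cells, when 24.5% of tested genes fell, with log2 changes from -4.85 (Ifi27l2a) to -2.80 (Gbp3) and a median of -3.99, against 0.04 over all tested genes. The limma adjusted p-values ran from 2.42e-16 to 1.96e-13 and the SE from 0.05 to 0.14. No library of ND1 day 7 overlapped control day 7 for any of the 39, and among tested genes 44.3% lay wholly lower and 46.6% wholly higher in ND1 cells.

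The same 2 ends illustrate the sizes. Ifi27l2a, a small interferon-induced mitochondrial membrane protein, was at 734, 669.5 and 672 FPKM in control and at 27.7, 21.9 and 19.9 FPKM in ND1 day 7 cells. Its log2 change was -4.85 (SE 0.14, limma adjusted p 1.96e-13). Gbp3 was at 31.1, 29.2 and 29.6 FPKM in control and at 3.91, 3.07 and 3.36 FPKM in ND1 cells, a log2 change of -2.80 (SE 0.06, limma adjusted p 5.96e-15). In both genes every ND1 library lay far below the lowest control library. Because 1 was added to each FPKM, changes of genes with low levels such as Gbp3 are understated on this scale.

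The leading genes fell in the same range. Irf7 was at 33.8, 26.1 and 28.0 FPKM in ND1 day 7 cells and fell by 4.62 (SE 0.07, limma adjusted p 5.44e-16). Isg15 was at 24.8, 18.6 and 20.7 FPKM and fell by 4.25. Bst2 was at 81.7, 63.9 and 65.3 FPKM and fell by 4.37. All 3 were highest in ND1 day 7 replicate 1. Ifit2 was at 21.4, 16.5 and 17.9 FPKM and fell by 4.22. Oas3 was at 5.95, 4.53 and 4.87 FPKM and fell by 4.19. Gbp2 was at 4.31, 4.0 and 3.83 FPKM and fell by 3.35. Again replicate 1 was the highest, though for Gbp2 by less. Ifi204 was at 24.4, 19.0 and 21.1 FPKM and fell by 4.11, and Lgals3bp was at 99.8, 71.2 and 80.9 FPKM and fell by 3.58.

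As a share of control day 7, the 39 genes kept a median of 5.43% (quartiles 4.74 and 6.43%), from 3.34% for Mx1 to 11.6% for Irf9, while all genes with at least 1 FPKM in control kept a median of 78.9%. By role the median ran from 4.65% in the OAS family to 8.93% in the transcription factors. The 20 myeloid markers, measured in the same libraries, kept a median of 5.18% (quartiles 3.78 and 7.97%). Per 100 units of the myeloid marker sum, the sum of the 39 genes was 28.0 ± 0.936 in ND1 day 7 and 21.9 ± 0.39 in control day 7 cells. ND1 day 7 replicate 1 was highest of its group for all 39 genes, and also for 18 of the 20 myeloid markers. Of the 13599 tested genes it was highest for 6337, against 4144 for replicate 2 and 3118 for replicate 3. The sums of the 39 genes were 603, 461 and 497 FPKM, and those of the myeloid markers 2169, 1585 and 1825 FPKM. The summed neuron markers lay within 3450 to 3477 FPKM in these libraries. The part of the number of myeloid cells in the fall was not tested.

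**Figure D4:**
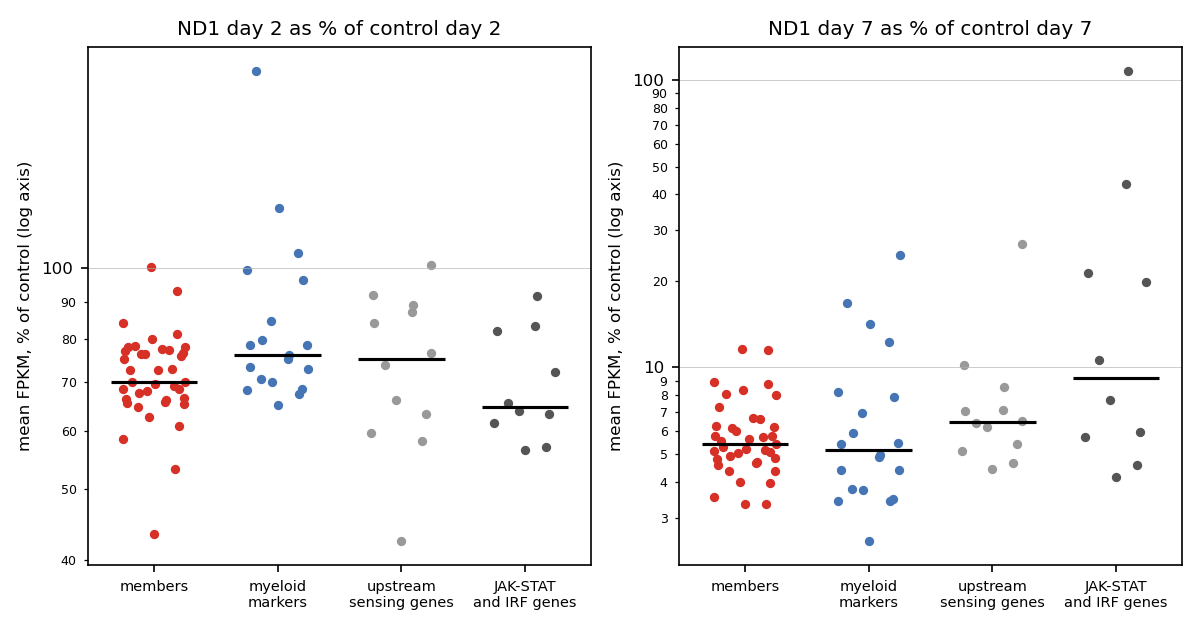
Mean level in ND1 cells as a percentage of the mean in control cells of the same day (log axis), at day 2 (left) and day 7 (right), for the 39 genes (members), the myeloid markers, the upstream sensing genes and the JAK-STAT and IRF genes with at least 1 FPKM in control. Each point is 1 gene and the bar is the median; the 39 genes have medians of 70.0% and 5.43%, the myeloid markers 76.1% and 5.18%.

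Within ND1 cells all 39 genes fell from day 2 to day 7, when 21.1% of tested genes fell, with a median log2 change of -4.26. The largest was Rsad2, from 819, 850 and 881 FPKM to 15.2, 12 and 12.5 FPKM, a log2 change of -5.91 (SE 0.07, limma adjusted p 3.63e-16). The smallest was Irf9, from 60.2, 65.7 and 66.5 FPKM to 8.18, 7.34 and 7.74 FPKM, a log2 change of -2.90 (SE 0.05, limma adjusted p 5.33e-15). Even for Irf9 the libraries of both days lay far apart. The difference between the ND1 effects at day 7 and at day 2 was tested as an interaction. It was negative and called in all 39 genes, when it was in 20.8% of tested genes, from -4.50 for Ifi27l2a (SE 0.20, limma adjusted p 7.22e-11) to -2.17 for Mx2 (SE 0.08, limma adjusted p 1.34e-11). Mx2 was at 69.3, 72.0 and 71.6 FPKM in control day 2, 36.2, 38.3 and 38.8 FPKM in ND1 day 2, 17.4, 14.7 and 17.1 FPKM in control day 7 and 1.16, 0.983 and 1.11 FPKM in ND1 day 7 cells. It thus stood lower in ND1 cells on both days, and its control level had itself come down by day 7. With ND1 day 7 values this low, the difference of Mx2 is understated by the 1 added to each FPKM. The 19 tested myeloid markers moved in the same direction. Within ND1 cells 18 of them fell from day 2 to day 7, with a median log2 change of -3.61, and the interaction was negative and called in all 19, with a median of -3.92 against -3.45 for the 39 genes. Of the fibroblast and mural markers 5 of 5 tested rose within ND1 cells from day 2 to day 7. Among all 13599 tested genes, 3075 rose in this comparison in the fit with a replicate block. The part of these markers was not tested. The comparisons above share control and ND1 libraries, so their values are set side by side and no overlap between them is drawn as a result.

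**Figure D5:**
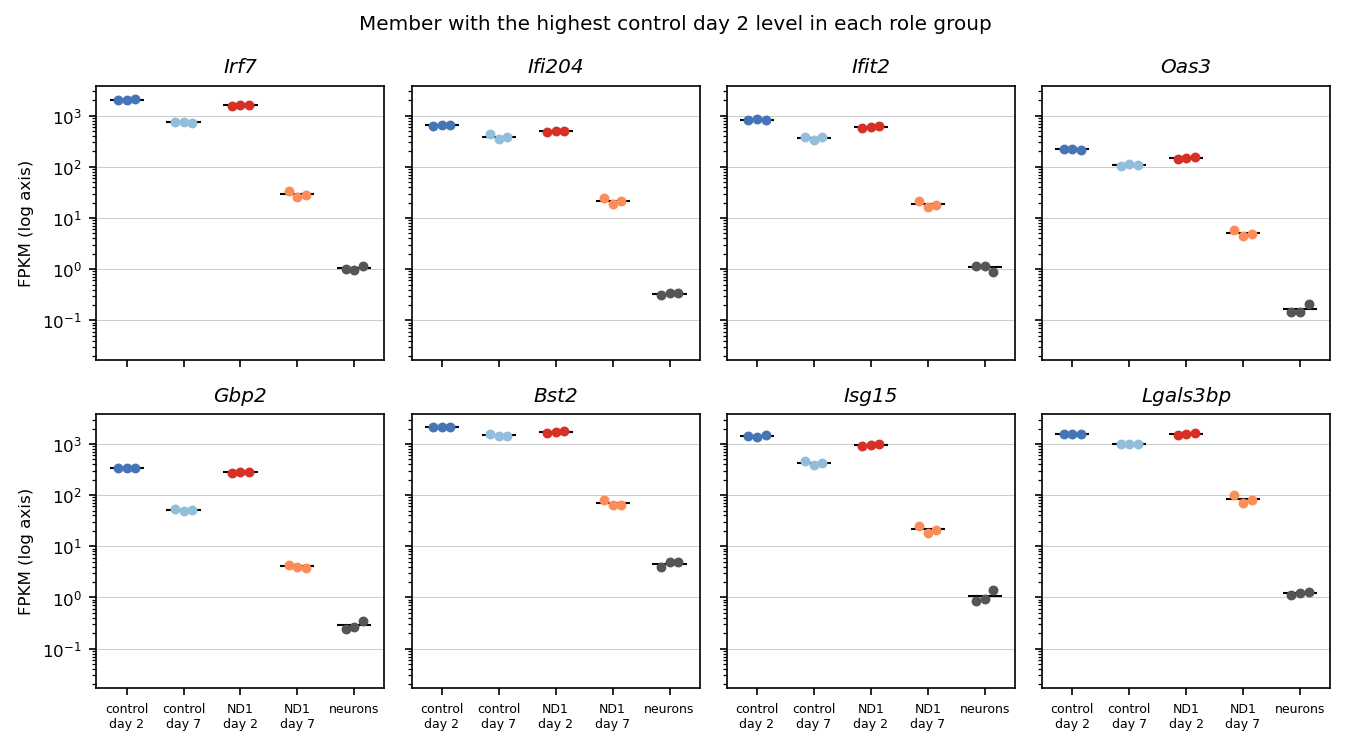
FPKM (log axis) in each of the 15 libraries for the highest gene of each role group in control day 2 cells; points are libraries and the line is the group mean. In every panel the ND1 day 7 libraries lie below all control and ND1 day 2 libraries and above all neuron libraries, and control day 7 lies below control day 2, most widely for Gbp2 (50.5 against 341 FPKM).

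ND1 day 7 cells were also set against the cultured neurons. 36 of the 39 genes were higher in ND1 day 7 cells by the call rule, when 7.29% of tested genes were, and the median log2 difference was 2.38. With a pseudocount of 0.1 in place of 1 the median was 3.85, since most of these genes were under 1 FPKM in neurons. For all 39, every ND1 day 7 library lay above every neuron library, which held for 43.4% of tested genes. With 1 added to each FPKM, Lgals3bp differed the most, by a log2 difference of 5.26 (SE 0.09, limma adjusted p 2.46e-14). It was at 99.8, 71.2 and 80.9 FPKM in ND1 day 7 cells and 1.09, 1.21 and 1.30 FPKM in neurons. Irf7, at 1.01, 0.959 and 1.17 FPKM in neurons, differed by 3.88, and Bst2, at 3.91, 4.83 and 4.88 FPKM, by 3.68. The 3 that were not called were Irf9 (0.95), Stat2 (0.87) and Mx2 (0.75). Stat2 was at 10.5, 8.99 and 9.52 FPKM in ND1 day 7 cells and at 4.99, 4.73 and 4.79 FPKM in neurons, so these 2 transcription factors were among the few genes of the group above 1 FPKM in neurons. The other neuron levels above 1 FPKM included Ifitm3, an endosomal barrier to virus entry, which was the highest at 8.10 FPKM, and Cmpk2 at 3.47 FPKM. Mx2 was at 0.212, 0.236 and 0.267 FPKM in neurons, where its low level limits the log2 difference on this scale. All 19 tested myeloid markers were also higher in ND1 day 7 cells than in neurons, with summed levels of 1585 to 2169 FPKM and 73.7 to 80.0 FPKM, and their part in the difference was not tested.

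Neurons were compared with control day 7 microglia as the reference for the 2 cell types. All 39 genes were lower in neurons, when 25.2% of tested genes were, with a median log2 difference of -6.36. The differences ran from -8.84 for Lgals3bp (SE 0.09, limma adjusted p 5.92e-18) to -3.81 for Mx2 (SE 0.06, limma adjusted p 1.45e-16). Which genes stand at these ends depends on the 1 added to each FPKM. As a share of control day 7, the neuron level ran from 0.036% for Ifi44 to 5.27% for Irf9, with Mx2 at 1.45%. The neuron level was a median of 0.28% of that in control day 7 microglia, and the 3 neuron libraries lay below all control day 7 libraries for every gene, as they did for 42.9% of tested genes, while 46.3% lay wholly above. With a pseudocount of 0.1 the median log2 difference was -8.08. Isg15 was at 0.849, 0.948 and 1.41 FPKM in neurons, Ifit2 at 1.17, 1.18 and 0.897 FPKM and Gbp2 at 0.241, 0.264 and 0.346 FPKM.

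Genes that act before and beside these targets were examined as lists. Among 21 interferon ligand genes, Ifnb1, the gene of interferon beta, was the only one high enough to be tested, and the highest value of the other 20 in any library was 0.351 FPKM. Ifnb1 was at 13.7, 10.6 and 16.1 FPKM in control day 2 and at 1.32, 0.624 and 1.22 FPKM in control day 7 cells. Day 2 libraries lay well above day 7 libraries, and it fell by 2.81 (SE 0.14, limma adjusted p 8.3e-10). In ND1 cells it was at 9.70, 10.2 and 10.9 FPKM at day 2 and was listed at 0, 0 and 0.128 FPKM at day 7. The ND1 day 2 values overlapped those of control day 2, and the log2 difference of -0.34 (SE 0.14) was not called. Neurons were listed at 0.

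Of the receptor chains, Ifnar1 was nearly level in microglia and ND1 cells, with means of 14.4, 15.5, 13.8 and 14.3 FPKM in control day 2, control day 7, ND1 day 2 and ND1 day 7 cells. Ifnar2 was at 144, 145 and 143 FPKM in control day 2, 127, 126 and 120 FPKM in control day 7, and 20.2, 18.2 and 19.1 FPKM in ND1 day 7 cells. It fell by 2.64 against control day 7 (SE 0.05, limma adjusted p 2.66e-15), with no overlap, while the log2 change of Ifnar1 was -0.11. Ifngr1, a chain of the interferon gamma receptor, rose from day 2 to day 7 in control cells, from 61.6, 64.6 and 65.2 FPKM to 142, 130 and 134 FPKM, a log2 change of 1.07. In all, 3 of 5 tested receptor genes fell in ND1 day 7 against control day 7 cells, the third being Il10rb, when 24.5% of tested genes fell.

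In the list of JAK-STAT and IRF signalling genes, 0 of 10 was called between control days, when 3.79% of tested genes fell and 3.9% rose, and 9 of 10 fell in ND1 against control cells at day 7, when 24.5% of tested genes fell. Jak2, a kinase of the interferon gamma receptor, was the member that did not pass, with a log2 change of 0.10. All 12 genes of the upstream sensing list fell at day 7, against the same 24.5%, from Unc93b1 (-4.44), which carries nucleic acid receptors to endosomes, to Tbk1 (-1.81), the kinase that activates Irf3. The 19 tested myeloid markers all fell in this comparison as well, with a median log2 change of -4.20, and their part in the falls of these lists was not tested. At day 2 1 of these 12, Ikbke, a kinase related to Tbk1, fell, from 107, 104 and 108 FPKM to 43.6, 45.1 and 46.3 FPKM, a log2 change of -1.22 (SE 0.06, limma adjusted p 6.83e-10), when 0.618% of tested genes fell. Between control days Tlr3, a receptor of double-stranded RNA, fell by 1.14. Of 10 negative regulators 3 fell between control days, namely Trex1 (-1.21), Socs3 (-1.13) and Socs1 (-1.06), against 3.79% of tested genes, and 5 fell in ND1 day 7 against control day 7 cells, against 24.5%.

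The 7 interferon-induced chemokine genes all fell between control days, when 3.79% of tested genes fell. Cxcl10 was at 138, 130 and 144 FPKM at day 2 and 8.88, 8.20 and 12.6 FPKM at day 7, a log2 change of -3.69 (SE 0.11, limma adjusted p 8.29e-12). Ccl5, with a mean of 11064 FPKM at day 2 and 1399 FPKM at day 7, fell by 2.98. At day 2, Cxcl10 (-1.31) and Ccl7 (-1.12) fell in ND1 against control cells, 2 of 7 genes where 0.618% of tested genes fell. At day 7, 4 of 7 fell in ND1 cells, against 24.5% of tested genes, and Cxcl10, at 4.75, 4.79 and 5.53 FPKM, did not pass with a log2 change of -0.84.

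CpG methylation was compared around the starts of the genes with a RefSeq promoter, in the 1000 bases on each side, with at least 5 CpGs in each library. With 1 library per group there is no replicate error and no test, and the files give fractions without read depth, so the depth behind each value is unknown. For the 28 genes with a value, the median was 33.4% in the control and 35.9% in the ND1 library, against 6.92 and 6.99% for the tested genes. Over all 25035 genes with a promoter and a value it was 36.88 and 37.15%, so the 28 genes stood near the level of all promoters. The median difference per gene was 0.208 percentage points. The windows of the 28 genes held fewer CpGs, a median of 24 in the control library against 79 for the tested genes and 39 for all genes with a promoter. The part of CpG number in the gap to the tested genes was not tested. The level depended on the window: the control median was 17.8% over 24 genes with 500 bases on each side, against 2.01% for tested genes, and 2.85% over 15 genes from 250 bases before to 50 after the start, against 1.07%. For all genes with a promoter the control medians in these 2 windows were 17.07% and 1.76%. By all CpGs in the 1000 bases on each side, the differences of the 28 genes ran from -25.3 to 10.7 points. Of these genes 1 was higher and 2 were lower by at least 10 points in the ND1 library, as 0.129% and 0.099% of tested genes were. Besides Herc6 these were Samd9l, at 32.0% over 5 CpGs in the control and 16.4% over 6 CpGs in the ND1 library, and Ifit3, at 37.6% over 5 CpGs and 48.4% over 6 CpGs. Over shared CpGs Ifit3 was at 37.6 and 40.1%, and Samd9l, at 21.6 and 7.5% over 4 shared CpGs, had fewer than the minimum of 5 and does not enter the values that follow. Over the same CpGs measured in both libraries, 27 genes had a value, with medians of 34.3 and 35.6%. There the differences lay between -4.28 and 7.08 points, and none passed 10 points, as 0.119% of tested genes did. Restricting the comparison to shared CpGs was chosen after seeing the data. The genes spanned a wide range: Oas3 was at 69.8% in the control and 68.2% in the ND1 library, Isg15 at 61.1 and 58.0%, Irf7 at 15.8 and 14.8%, and Cmpk2 at 6.92 and 8.64%. Herc6 stood at 28.6% in the control and 3.35% in the ND1 library by all CpGs, which numbered 24 and 17, but over the 17 shared CpGs it was at 2.97 and 3.35%. The mean over all CpGs was 70.2% in the control and 70.3% in the ND1 library.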

How the data were processed

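RNA values are the authors' deposited FPKM per gene. TopHat, Bowtie2, Cuffdiff and Cufflinks were used on the mm10 build, per the submitters' processing notes, which give no versions. For bisulfite data the deposited value is the methylated fraction of each CpG. Libraries were made by post-bisulfite adaptor tagging, per the labels' protocols, and their aligner is not given in the sources used here. In the control library the position column matched the C of a CpG at 21048 of 21048 sites, read from RefSeq sequence in a random sample of promoters. The ND1 library was read in the same way without this check.

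The gene list, the role groups, the pathway and marker lists, the tests and the thresholds were chosen with earlier results of these data known. Of 24293 symbols, the 4 entries with a duplicated symbol were dropped. Testing covered 13599 genes, all 39 included, that reached 1 FPKM in 3 or more libraries. limma 3.58.1 (R 4.3.3) was run on log2(FPKM + 1) with 5 group means, an intensity trend and 10 residual degrees of freedom, without a replicate block, and p-values were adjusted over all tested genes by Benjamini-Hochberg in each of 7 comparisons. The fit was also run on simulated data with independent noise per gene and added changes larger than the call threshold. That run does not cover shared shifts of a library or changes near the threshold, and no result here rests on it. No 2 libraries were identical.

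All 39 genes could be named. Full values were given for the highest gene of each role group in control day 2 cells and for the largest and smallest change of each comparison. Oasl1, Oasl2, Oas2 and Stat2 were given in full after their values were seen. Pathway genes were named with called genes first. Genes with near-identical relatives (the OAS, IFIT, Gbp, Ifi204, Trim30a and Ifi27l2a families) may share reads with them and are uncertain to that extent. RefSeq promoters (GRCm38.p6, the same primary assembly as mm10) were matched by symbol. The alternatives were other pseudocounts, filters and scalings, no fold threshold, a replicate block, leaving out each library, and other windows and CpG minimums. Files of the 10 immunoprecipitation samples were not used.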

Additional observations from a re-analysis of the deposited data

Results flagged for a closer look

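The ND1 effect differed between day 2 and day 7 for all 39 of the 39 genes, by the interaction term of the limma fit with Benjamini-Hochberg adjustment, when 20.8% of tested genes had a called negative interaction. Ifi27l2a had the largest difference of the ND1 effects, -4.50 on the log2 scale (SE 0.20, limma adjusted p 7.22e-11). The ND1 to control difference of Ifi27l2a was -0.36 at day 2 and -4.85 at day 7. Mx2 had the smallest difference, -2.17 (SE 0.08, limma adjusted p 1.34e-11), with -0.89 at day 2 and -3.06 at day 7. Summed myeloid markers in ND1 cells were 24107 to 26468 FPKM at day 2 and 1585 to 2169 FPKM at day 7, and their part in these differences was not tested.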

How the results depend on the processing

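Under each setting, genes were counted only if called in the direction of the main fit, so these counts cannot show a reversal. They stayed within 1.5 times the values reported under all settings run except for the following. Without the fold threshold, 34 genes were lower in control day 7 against day 2 and 37 in ND1 against control at day 2. Under quantile normalization 0 of the 39 was called in ND1 against control at day 2, where Mx1 was at -0.96. That normalization moved the median of all tested genes to -0.10 in this comparison, and that of the 39 genes from -0.51 to -0.32. Leaving out 1 library gave 16 to 17 called genes in control day 7 against day 2, the added gene being Oas3 at -1.01 without control day 2 replicate 3 or -1.02 without control day 7 replicate 2. It gave 1, 39, 39, 39, 36 and 39 in the other comparisons in the order of the report. With a group of 2, the remaining spread is taken from all groups. The log2 change of Eif2ak2 between control days, 0.03, was -0.019 without control day 7 replicate 3 and reached 0.064. That of Lgals3bp in ND1 against control at day 2, 0.00045, was -0.00130 without control day 2 replicate 1, -0.00460 without control day 2 replicate 3, -0.000145 without ND1 day 2 replicate 2 and -0.041 without ND1 day 2 replicate 3, and reached 0.043. These 2 genes have no direction in those comparisons. Mx2 in ND1 day 7 against neurons was 1.81 and called with a pseudocount of 0.1. For methylation, the control median and the median difference were 17.8% and -0.039 points with 500 bases on each side, 2.85% and 0.249 points from 250 bases before to 50 after, 31.6% and -0.208 points with at least 10 CpGs, and 34.3% and 0.322 points over shared CpGs. The window sets the level, and no sign of the difference held across windows.

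Replicate numbers did not pair the libraries: over 30 pairs of equal number in different groups, the correlation of deviations ran from -0.226 to 0.161, 2 were over 0.1, and 3 of 15 libraries correlated best with their own number. With the replicate block, the counts of called genes were 16, 1, 39, 39, 39, 36 and 39 in the same order with control day 7 against day 2 first, the same as without it. FPKM carries no depth, which limits statements on genes near 0, most of all in neurons.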
